A study of Mus musculus with 107 samples.

Results

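Ezh2-bound chromatin contacts were compared over the whole genome between mouse embryonic stem (ES) cells that lack a distal element on chromosome 9 and the parental cells that carry it. The contacts came from ChIA-PET, an assay that cuts chromatin, ligates DNA ends held close together, pulls down the complexes with an antibody, here against Ezh2, and sequences each joined pair as a paired-end tag (PET). The chr9-F1 and chr9-G9 clones and the parental B6NJ line had 2 libraries each. Every contact that the deposited lists of these 6 libraries hold was taken, 41313 of the 75186 in the 10 Ezh2 libraries of a series of 107 samples. The 4 libraries of clones chr7-D4 and chr7-F4 added 33873 contacts and served as a second set that keeps the chr9 element. These clones were targeted instead at chr7:143440438-143450716 (mm10, 10279 bp), inside the Kcnq1 imprinted cluster, so they are no intact comparison there.

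Both chr9 clones derive from B6NJ ES cells and were targeted for removal of chr9:37451506-37461721 (mm10), 10216 bp with Robo3 18.1 kb to one side and Msantd2 and Esam 25.8 and 66.4 kb to the other. Each line is 1 clone, so what a clone acquired by chance cannot be told apart from the deletion. All lines were kept on irradiated mouse embryonic fibroblast feeders with the MEK inhibitor PD0325901 and the GSK3 inhibitor CHIR99021, so each library can hold some feeder chromatin. The labels do not say whether libraries of a line came from separate cultures. The p-values therefore measure only the spread between these libraries, which may be technical. One chr9-F1 library, replicate 1, is labelled by its title as the F1 clone and by its cell type as parental cells. It is given separately wherever a result rests on it.

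Ezh2 is the catalytic subunit of Polycomb repressive complex 2 (PRC2), which methylates lysine 27 of histone H3 and keeps developmental regulators low in ES cells. PRC2 binds mainly to promoters rich in unmethylated CG dinucleotides. Its strongest targets, among them the 4 Hox clusters, fold into compact domains and also meet each other in nuclear space. Distal PRC2-bound elements can contact promoters in the same way.

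The promoters on which the results below turn differ widely in CG content. The 250 bases upstream of each start site are printed from the RefSeq table of GRCm38.p6, which is the mm10 build, on the gene's own strand with every CG pair in capitals. Hoxd13, a posterior Hox gene at the core of one of the strongest Ezh2 domains (chr2:74667975-74668224, + strand), had 31 CG pairs. Robo3, an axon guidance receptor contacted by the deleted element (chr9:37433176-37433425, − strand), had 12. Phlda2, an imprinted regulator of placental growth (chr7:143502525-143502774, − strand), had 21. Slc22a18, an imprinted organic cation transporter beside it (chr7:143473539-143473788, + strand), had none. The Robo3 bases lie within the span of the gene itself (chr9:37416045-37433436), so the start site used there is not the outermost one.
Hoxd13: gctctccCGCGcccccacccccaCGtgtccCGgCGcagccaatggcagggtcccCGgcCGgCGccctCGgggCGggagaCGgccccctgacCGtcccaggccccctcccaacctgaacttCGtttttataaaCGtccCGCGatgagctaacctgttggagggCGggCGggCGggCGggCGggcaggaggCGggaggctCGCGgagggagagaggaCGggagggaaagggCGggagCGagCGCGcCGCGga
Robo3: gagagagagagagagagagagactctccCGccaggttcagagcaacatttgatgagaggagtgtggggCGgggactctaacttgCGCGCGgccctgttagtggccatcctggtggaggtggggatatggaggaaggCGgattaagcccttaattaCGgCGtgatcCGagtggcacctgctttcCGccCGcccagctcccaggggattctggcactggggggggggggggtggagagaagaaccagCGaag
Phlda2: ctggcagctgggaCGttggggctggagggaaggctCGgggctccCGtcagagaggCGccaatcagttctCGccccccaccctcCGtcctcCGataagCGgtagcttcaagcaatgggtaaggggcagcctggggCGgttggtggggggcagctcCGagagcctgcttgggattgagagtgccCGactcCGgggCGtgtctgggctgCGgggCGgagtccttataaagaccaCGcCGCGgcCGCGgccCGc
Slc22a18: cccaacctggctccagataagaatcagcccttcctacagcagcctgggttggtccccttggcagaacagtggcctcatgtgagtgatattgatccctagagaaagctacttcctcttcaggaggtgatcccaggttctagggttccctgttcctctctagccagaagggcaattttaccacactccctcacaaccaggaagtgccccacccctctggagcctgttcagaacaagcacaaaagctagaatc
A CG pair reads the same on both strands. Among 27025 promoters, 4.93% had as many CG pairs as Hoxd13 or more, 16.1% as many as Phlda2 or more and 33.8% as many as Robo3 or more. The 1224 promoters under an Ezh2 anchor in all 6 libraries (4.53% of all) had a median of 14 CG pairs, and 67.2% had at least 10. The 3426 under an anchor in 1 to 5 libraries had a median of 12, and 59.0% had at least 10. The 22375 under no anchor had a median of 5, and 33.4% had at least 10. These shares describe the lists, and a promoter can lie under a wide anchor without being the bound site.

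The lists were short, steep and unequal. They held 7104 and 7940 contacts for chr9-F1, 6619 and 6122 for chr9-G9, and 4734 and 8794 for the parental line. Their PETs came to 371575 and 585001 for chr9-F1, 753484 and 720397 for chr9-G9, and 301768 and 573859 for the parental line (chr7 libraries 323529 to 1324715). No contact had fewer than 3 PETs and none joined 2 chromosomes, so a contact that is not listed may still exist below the authors' threshold. In every library 100% of contacts had both anchors on a PRC2 peak mapped in E14 ES cells, so the lists may have been limited to these peaks, and this share carried no comparison. Contacts whose 2 anchors overlap held 83.1% to 93.7% of the PETs, which makes most of the signal local. Contacts with over 100 PETs recurred in all 5 other libraries for 98.5% and 95.4% of cases in clone chr9-F1, 77.7% and 76.1% in clone chr9-G9, and 98.5% and 96.8% in the parental line. Contacts with 3 to 5 PETs did so for only 3.32% to 17.4%. By 20 kb bins, 24.6% (chr9-F1), 27.5% (chr9-G9) and 23.5% (parental) of the pooled contacts were common to both libraries of a line. Between chr9 and parental libraries the same measure was 21.4% to 26.2%. The contact lists thus overlapped about as much across lines as within a line.

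The deleted interval held few or no contacts in the chr9 clones. Per 10000 listed contacts, those with an anchor in the interval numbered 2.82 and 0 for chr9-F1, 0 and 0 for chr9-G9, and 12.7 and 6.82 for the parental line. The means were 0.704 ± 1.41 (SD, n = 4) in the chr9 libraries and 9.75 ± 4.14 (SD, n = 2) in the parental ones. The groups did not overlap, and the exact two-sided permutation p was 0.133, the smallest that 4 against 2 libraries allow (0.333 after adjustment over the 5 whole-list measures). With the chr7 libraries added to the parental ones, 4 against 6, the exact permutation p was 0.00952 (0.0476 adjusted over the 5). Removed DNA gives no reads, so the deletion set this outcome in advance. The measure is a check of the labels and no test of a contact change. Libraries of 1 clone hold the same deletion event. Over 2 chr9 lines against 3 others the smallest exact p is 0.20, which this measure reached.

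**Figure D1:**
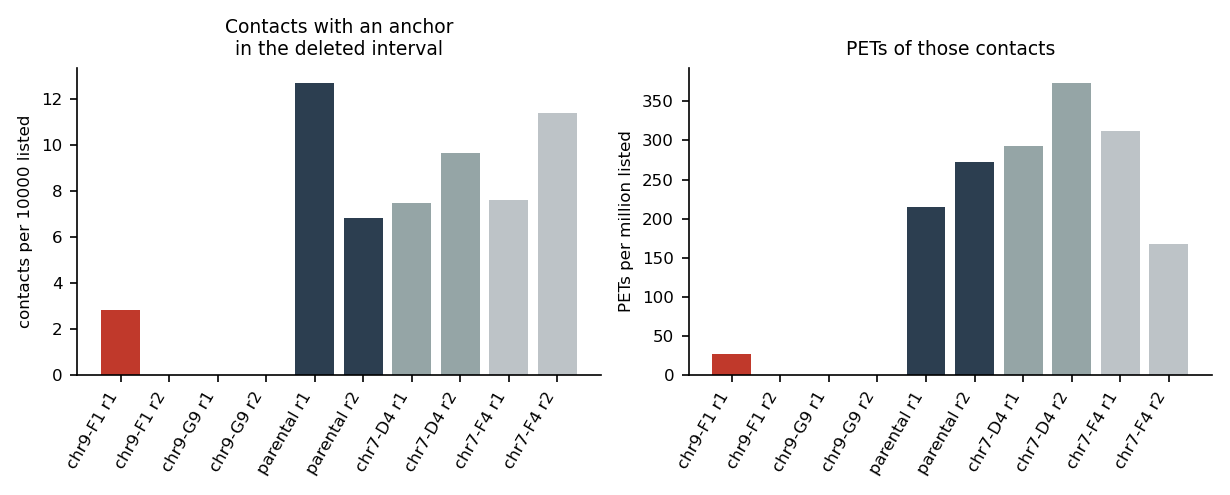
Contacts with an anchor in the deleted interval per 10000 listed (left) and their PETs per 1000000 listed (right), 1 bar a library. The only chr9 bar above 0 is chr9-F1 replicate 1, at 2.82 contacts per 10000, against 12.7 and 6.82 in the parental libraries and 7.48 to 11.4 in the chr7 ones.

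The remaining chr9 signal sat at the distal edge. The 2 contacts of chr9-F1 replicate 1 held 10 PETs in all. One, with 6 PETs, joined Robo3 to an anchor that reached 724 bp into the interval. The other, with 4 PETs, joined Esam, an endothelial cell adhesion molecule, to an anchor that reached 117 bp into it. Neither touched the first 9 kb. In the E14 maps a PRC2 peak (11.9-fold over background by the authors) and an H3K27me3 peak (3.53-fold) run 1127 bp and 830 bp past the end of the interval. E14 cells carry the element, and PRC2 binding beside the deletion was not mapped in the chr9 clones. The parental libraries gave 65 and 156 PETs at the interval, in 6 contacts each. Contacts with both anchors touching the interval held 44 and 84 of these PETs. In the strongest of them, with 40 and 84 PETs, both anchors ran past the end of the interval. The contacts of the element reached Robo3, with up to 58 PETs in 1 contact, and Esam, with 12 and 4 PETs. They also reached Pknox2, a homeobox gene 311 kb away (3 PETs), Gramd1b, a sterol transfer protein gene 2997 kb away (3 PETs), and Skor1, a transcriptional corepressor gene 25687 kb away (3 PETs). Those last contacts were at the list minimum and in 1 parental library each.

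Contacts were still listed in the flanks. Within 250 kb on either side, but outside the interval, PETs per 1000000 listed were 64.6 and 135 in clone chr9-F1, 232 and 218 in clone chr9-G9, and 275 and 150 in the parental line. Both chr9-F1 libraries lay below both parental ones, and both chr9-G9 libraries between them. At the Robo3 promoter printed above, contacts with an anchor over it held 2.42 and 2.74 PETs per 100000 in clone chr9-F1, 1.59 and 4.44 in clone chr9-G9, and 15.9 and 17.8 in the parental line. All 4 chr9 libraries were below both parental ones and below the chr7 libraries, at 7.42 to 24.5. These counts include contacts whose other anchor lies in the removed DNA, so part of the difference was fixed by the removal. Such contacts held only 3 of 48 PETs in parental replicate 1 and 58 of 102 in parental replicate 2. In chr7-F4 replicate 2 they held 17 and 4 of 24. The Robo3 contacts outside the element were not compared apart. For the 100 kb window with the interval and Robo3, edgeR gave a log2 change of -2.76 (SE 0.37, unadjusted p = 0.000563, adjusted p = 0.228), on 32, 42, 39 and 47 PETs in the chr9 libraries and 119 and 222 in the parental ones. The locus whose DNA is labelled as removed thus missed the adjusted threshold in edgeR's quasi-likelihood test. It passed with DESeq2 (adjusted p = 5.52e-09) and in edgeR without a filter on low counts (adjusted p = 0.0184).

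Summed over the 6 libraries the Hox clusters held the most PETs of all Ezh2 domains, and a smaller share of PETs in all 4 chr9 libraries than in both parental ones. Domains here are stretches of overlapping anchors, merged over the 10 libraries (9753 in all), and a share is the percent of a library's listed PETs with an anchor in the domain. The Hoxc domain held 5.16% and 5.00% in clone chr9-F1, 3.24% and 3.0% in clone chr9-G9, and 6.54% and 5.39% in the parental line. Hoxa held 4.03% and 4.18% in clone chr9-F1, 2.12% and 3.28% in clone chr9-G9, and 5.21% and 5.06% in the parental line. Hoxb held 3.84% and 4.29% in clone chr9-F1, 3.22% and 3.44% in clone chr9-G9, and 5.10% and 5.06% in the parental line. Both clones were lower than the parental line in each of these, and chr9-G9 was the lower clone.

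Hoxd stood at 3.08% and 3.13% in clone chr9-F1, 1.45% and 1.48% in clone chr9-G9, and 3.27% and 3.41% in the parental line. Here chr9-F1 was close to the parental line. The Hoxd13 promoter printed above followed its domain, with 2759 and 3088 PETs per 100000 in clone chr9-F1, 1435 and 1348 in clone chr9-G9, and 2912 and 3064 in the parental line. The chr7 clones, which keep the element, ran from 4.05% to 5.27% at Hoxc, 4.16% to 5.55% at Hoxa, 3.36% to 4.79% at Hoxb and 2.72% to 3.97% at Hoxd. Most of the chr9-F1 values therefore lay inside the range of lines that keep the element. No Hox domain passed the test: by edgeR with TMM scaling the log2 changes were -0.89 (Hoxa, adjusted p = 0.144), -0.73 (Hoxb, 0.107), -0.85 (Hoxc, 0.107) and -0.91 (Hoxd, 0.0775). They were negative under each of 3 scalings, from -0.45 to -0.93. The median of all 2217 domains tested lay at 0.18, 0.45 or 0.15 with TMM, plain PET shares and DESeq2 size factors.

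**Figure D2:**
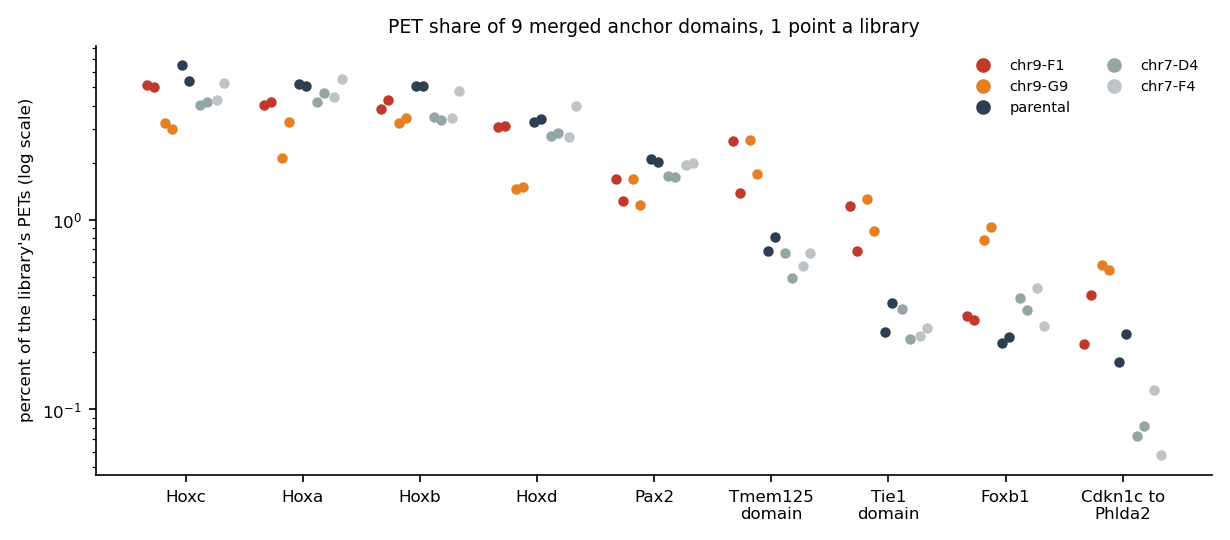
Percent of a library's PETs in 9 merged anchor domains (log axis), 1 point a library, coloured by line. Of the chr9-F1, chr9-G9 and parental lines chr9-G9 lies lowest at the Hox clusters, and at the chromosome 4 domains with Tmem125 and Tie1 all 4 chr9 points lie above the other 6.

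Other strong developmental domains also lay lower in the chr9 libraries without passing the test. Pax2, a kidney and midbrain regulator, held 1.63% and 1.26% of PETs in clone chr9-F1, 1.63% and 1.19% in clone chr9-G9, and 2.1% and 2.02% in the parental line (edgeR log2 change -0.79, adjusted p = 0.149). Tlx1, needed for spleen formation, held 0.542% and 0.527% in clone chr9-F1, 0.282% and 0.281% in clone chr9-G9, and 0.597% and 0.743% in the parental line (edgeR log2 change -1.05, adjusted p = 0.107). Gata2, a blood stem cell factor, held 0.217% and 0.185% in clone chr9-F1, 0.178% and 0.15% in clone chr9-G9, and 0.323% and 0.341% in the parental line. Foxd2 and Foxe3, a pair of forkhead genes, shared a domain with 0.652% and 0.654% in clone chr9-F1, 0.436% and 0.524% in clone chr9-G9, and 0.878% and 0.774% in the parental line. The chr7 libraries had 1.69% to 2.00% at Pax2, above every chr9 library. They had 0.503% to 0.756% at Tlx1 and 0.193% to 0.293% at Gata2, which overlapped chr9-F1 at both. They had 0.844% to 0.931% at the forkhead domain, so it was below all 6 others in every chr9 library (edgeR log2 change -0.83, SE 0.14, adjusted p = 0.116). Of the domains in this paragraph Tlx1, Gata2 and the forkhead pair were chosen after their values were seen.

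A list of 147 developmental loci (215 genes) gave the group values. As a whole it held 51.3% and 51.4% of PETs in clone chr9-F1, 39.0% and 38.5% in clone chr9-G9, and 53.9% and 56.2% in the parental line. The means were 45.0 ± 7.27% (SD, n = 4) and 55.1 ± 1.64% (SD, n = 2), with an exact two-sided permutation p of 0.133, the smallest possible (0.333 adjusted over 5 measures). Against the 6 libraries that keep the element the exact permutation p was 0.0952, with chr7 values of 49.9% to 57.6%. The chr9-F1 values lay inside that range, so the low mean came mainly from chr9-G9. By number of contacts the list took 18.5 ± 4.37% in the chr9 libraries and 22.3 ± 3.13% in the parental ones (exact permutation p = 0.40). Contacts were listed at 146 loci, and 141 had at least 100 PETs over the 6 libraries. Of these, 17 (12.1%) were lower in all 4 chr9 libraries than in both parental ones, 12 (8.51%) were higher, and 112 (79.4%) overlapped. Over all 1661 domains with at least 100 PETs, 3.73% were lower in all 4 and 18.4% were higher. Against all 6 other libraries 0.783% of domains were lower and 3.61% higher.

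By difference in PET share, the 5 list loci furthest below the parental line were the Hoxc, Hoxa, Hoxb and Hoxd clusters and Evx1, a homeobox gene inside the Hoxa domain. All 5 were lower in every chr9 library, as were Pax2, Tlx1, Pax6, Gata2, Pax3, Wnt1-Wnt10b, Vax2, Foxa2, Fgf8, Hand1, Emx1 and Bmp7. The 5 furthest above were Foxb1, Cdkn1c-Kcnq1, Foxf1-Foxc2-Foxl1, Wnt6-Wnt10a and Lhx1. Only Foxb1 of these was higher in all 4 chr9 libraries. The other four overlapped: Wnt6-Wnt10a, for example, had 1.11% and 1.01% in clone chr9-F1, 0.950% and 0.743% in clone chr9-G9, and 0.441% and 1.23% in the parental line. Among the remaining list loci higher in all 4 were Grb10, Igf2-H19, Wnt3-Wnt9b, Sox14, Olig3, Tcf21, Nkx6-2, Prrx1, Sall1 and Pitx3.

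Strong and weak domains differed in opposite directions. Shares are percents of 1 library's PETs, so a lower share in the strong domains leaves more for the others. The 2 directions are therefore not separate observations. The 38 domains that each held at least 0.5% of PETs took together 47.4% and 44.7% of PETs in clone chr9-F1, 34.9% and 34.0% in clone chr9-G9, and 50.1% and 49.6% in the parental line. Their median log2 ratio of mean shares was -0.32, and 32 of 38 had the lower mean in the chr9 libraries. The 166 domains at 0.1% to 0.5% had a median of -0.06, the 421 at 0.02% to 0.1% a median of 0.38, and the 1036 weaker ones a median of 1.04. The weakest class took 5.94% and 7.42% in clone chr9-F1, 12.7% and 12.6% in clone chr9-G9, and 4.83% and 5.44% in the parental line. The chr7 libraries took 4.52% to 8.85%, so only chr9-G9 lay outside the other lines there. A weak domain could enter through the deeper chr9 libraries where it is high, so the medians of the 2 weaker classes are not support for a gain. Among the 501 domains with at least 1000 PETs, 73 were higher and 37 lower in all 4 chr9 libraries than in both parental ones.

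The lists also differed in depth and steepness. The 10 contacts with the most PETs took 22.9% and 22.3% of a list in clone chr9-F1, 17.9% and 17% in clone chr9-G9, and 29.4% and 26.1% in the parental line. The chr9-G9 lists also had the most PETs of the 6. Their anchors were the widest, with medians of 3036 and 3441 bp against 1966 and 2187 bp in chr9-F1 and 2724 and 1863 bp in the parental line. Within the chr7 libraries the 3 deepest lists of all, at 1157422 to 1324715 PETs, took 41.1% to 41.6% in the 38 strong domains. The shallowest chr7 list, at 323529 PETs, took 50.8%, so the deeper chr7 lists had the smaller share. Those 3 deepest lists took more than chr9-G9, which had fewer PETs. The parts of depth and of anchor width in the Hox and list shares were not tested.

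**Figure D3:**
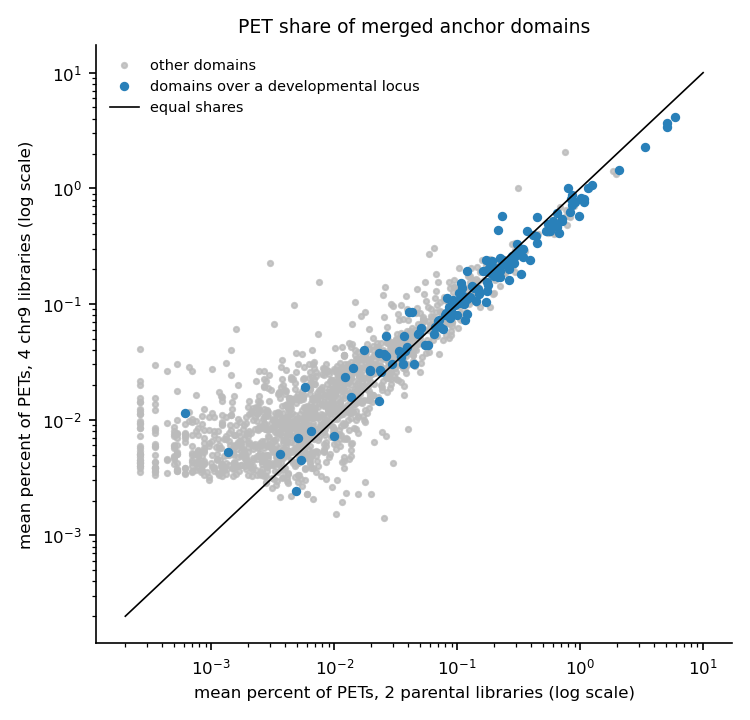
Mean percent of PETs per merged anchor domain in the 4 chr9 libraries (vertical) and the 2 parental libraries (horizontal), both axes log, for the 1574 of 1661 domains listed in both groups; the 150 over a developmental locus are in blue. The largest domains lie below the line of equal shares, and domains under about 0.02% lie mostly above it, where the 100 PET minimum favours the deeper chr9 libraries.

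Tests over all contacts and loci called almost nothing. Among 3379 contacts between 20 kb bins, edgeR called 0 higher and 0 lower (0% each way, with 251 at an unadjusted p under 0.05). DESeq2 called 74 higher and 150 lower in the same table. Among 2570 loci of 100 kb, edgeR called 0 higher and 1 lower (0% and 0.0389%, with 287 at an unadjusted p under 0.05), and DESeq2 82 and 41. The biological coefficient of variation between libraries of a line was 174% for contacts, 89.6% for loci and 79.8% for merged domains. For RNA of the same lines it was 7.39%.

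The 1 called locus showed how binning acts on such lists. It holds En1, a homeobox gene of the midbrain, with 1347 and 1772 PETs in clone chr9-F1, 8 and 8 in clone chr9-G9, and 876 and 1822 in the parental line (edgeR log2 change -4.22, adjusted p = 0.00832). As a merged domain, En1 held 0.387% and 0.349% in clone chr9-F1, 0.253% and 0.203% in clone chr9-G9, and 0.314% and 0.366% in the parental line (edgeR log2 change -0.49, adjusted p = 0.271). The wide anchor had its midpoint in the next window in chr9-G9. Merged domains are free of this jump. Over 2217 of them edgeR called 0 higher and 0 lower (0% each way, with 313 at an unadjusted p under 0.05). When weak domains were admitted by dropping the filter, 56 were called higher and 41 lower among 7624, the Hox domains among them. Without chr9-F1 replicate 1, whose labels conflict, the filter let in 3039 domains and 29 (0.954%) were called higher and 11 (0.362%) lower. On the 2217 domains tested with all 6 libraries, leaving out chr9-F1 replicate 1 gave 0 calls, as did leaving out each of the other 5 in turn.

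The contacts of smallest p did not pass either (all adjusted p = 0.484 by edgeR). Lower in the chr9 libraries were a pair of bins from Neurod2 to Erbb2, with 0 in all 4 and 2593 and 4238 PETs in the parental line, and pairs at Kcng4, Elfn1, Alx4 and Six2. Higher were pairs at Uncx, a somite homeobox gene, with 3067, 4638, 4397 and 3377 PETs in the chr9 libraries and 0 in both parental ones, and at Sp5, Fat3, Tchh and Nlrp6. The first named pair on each side was followed outside its bins. Whatever bins its midpoints fell in, the strongest contact touching the Neurod2 to Erbb2 bins had 2959 and 4555 PETs in clone chr9-F1, 5524 and 5563 in clone chr9-G9, and 2593 and 4238 in the parental line. At Uncx it had 3067 and 4638 PETs in clone chr9-F1, 4397 and 3377 in clone chr9-G9, and 2172 and 4953 in the parental line. The other 8 pairs were not followed in this way. At Tchh, by overlap of both anchors, 71 and 96 PETs were listed in chr9-F1, 124 and 79 in chr9-G9, 0 in both parental libraries and 0 to 169 in the chr7 ones. The other loci of smallest p were, on the lower side, Tfap2d, Col16a1-Adgrb2, the deleted locus and Hoxd. On the higher side they were Kcnq1-Cdkn1c, the H2-D1 and Tnf region, a chromosome 4 window without a named gene, Fat3 and Cdh22. None of these 9 passed in edgeR (adjusted p from 0.196 to 0.278).

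The clearest separation at high PETs lay in 2 neighbouring domains on chromosome 4, chosen after their values were seen. The first, with Tmem125, Cfap57 and Ebna1bp2 (chr4:118496426-118674626), held 2.59% and 1.38% in clone chr9-F1, 2.62% and 1.74% in clone chr9-G9, and 0.686% and 0.810% in the parental line. The second, with Ptprf, Cdc20 and Tie1 among others (chr4:118197385-118491946), held 1.18% and 0.687% in clone chr9-F1, 1.29% and 0.872% in clone chr9-G9, and 0.257% and 0.364% in the parental line. The chr7 libraries ran from 0.496% to 0.668% and from 0.235% to 0.340%. In both domains every chr9 library of both clones exceeded all 6 others. Contacts between the 2 domains, whose edges lie 4.48 kb apart, held 1182 and 685 PETs per 100000 in clone chr9-F1, 1232 and 832 in clone chr9-G9, and 255 and 362 in the parental line. Over the 6 libraries these contacts held 26520 PETs, against 27280 in the whole second domain and 56687 in the first. The second domain was thus almost wholly its contact with the first, and the 2 shares are not independent. By edgeR the log2 changes of the first and second domain were 1.22 (SE 0.30, adjusted p = 0.168) and 1.44 (SE 0.29, adjusted p = 0.144), so neither passed over all domains.

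The Kcnq1 imprinted cluster on chromosome 7, also chosen after its values were seen, held more Ezh2 PETs in the chr9 libraries in only 3 of 4 cases. Here a long noncoding RNA, Kcnq1ot1, runs antisense to Kcnq1 from the paternal copy and is known to recruit PRC2 over neighbouring genes such as Cdkn1c, a cell cycle inhibitor, and Phlda2. The domain from Kcnq1 to Nap1l4 (chr7:143247065-143547141) held 0.222% and 0.40% of PETs in clone chr9-F1, 0.579% and 0.546% in clone chr9-G9, and 0.178% and 0.251% in the parental line, with 0.0572% to 0.126% in the chr7 libraries, whose own deletion lies in this domain. One chr9-F1 library lay between the parental ones (edgeR log2 change 0.71, adjusted p = 0.315). The contact there widened with its PETs: the one over the Slc22a18 promoter spanned 68.3 and 175 kb in chr9-F1 (565 and 2052 PETs), 300 and 280 kb in chr9-G9 (4184 and 3764 PETs), and 47.3 and 115 kb in the parental line (352 and 1186 PETs). It covered the Phlda2 promoter in both chr9-G9 libraries and in chr9-F1 replicate 2 only. So the Phlda2 promoter counted 15.1 and 351 PETs per 100000 in clone chr9-F1, 555 and 522 in clone chr9-G9, and 2.65 and 4.18 in the parental line, although it has 21 CG pairs against none at Slc22a18. The Slc22a18 promoter counted 152 and 351 in clone chr9-F1, 555 and 542 in clone chr9-G9, and 117 and 207 in the parental line.

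**Figure D4:**
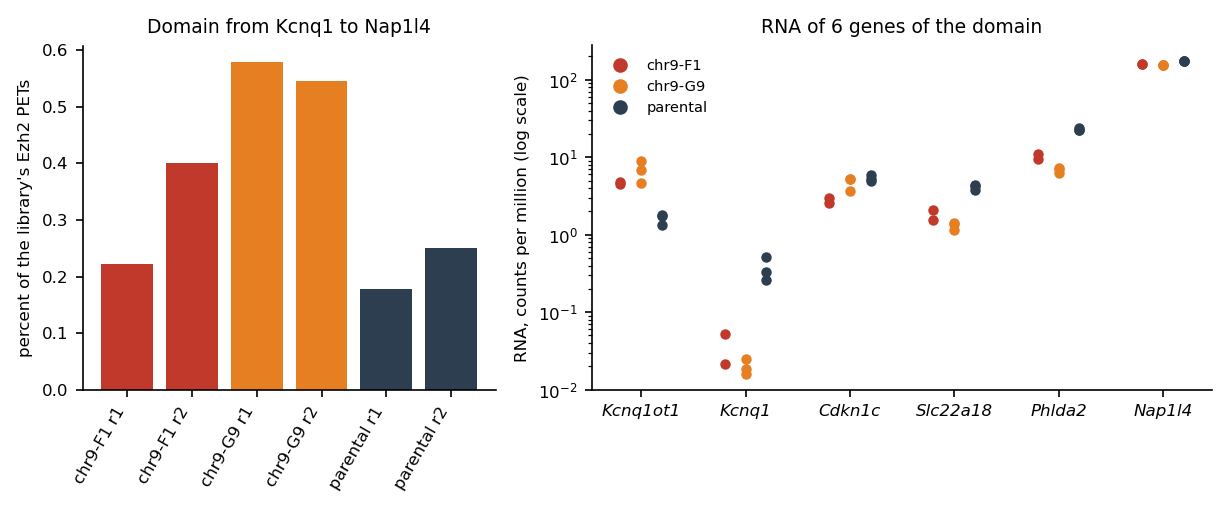
Left, percent of Ezh2 PETs in the chromosome 7 domain from Kcnq1 to Nap1l4 by library; right, RNA in counts per 1000000 (CPM, log axis) of 6 genes there, 1 point a library. Kcnq1ot1 is higher in both chr9 clones than in the parental line, and Kcnq1, Slc22a18 and Phlda2 are lower.

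Foxb1, a forkhead gene of the developing brain on chromosome 9, shared a domain with Anxa2 and Bnip2 that lies far from the deletion. It held 0.311% and 0.298% in clone chr9-F1, 0.779% and 0.917% in clone chr9-G9, and 0.223% and 0.240% in the parental line. The chr7 libraries, at 0.275% to 0.437%, overlapped chr9-F1 but not chr9-G9 (edgeR log2 change 0.87, SE 0.15, adjusted p = 0.116). Both Foxb1 and Nfasc, below, show the largest values in chr9-G9. Nfasc, a neuronal adhesion molecule, with Lrrn2 and Mdm4 held 0.0213% and 0.0140% in clone chr9-F1, 0.359% and 0.512% in clone chr9-G9, and 0.00596% and 0% in the parental line. Mapt, the tau gene, with Crhr1 held 0.0390% and 0.111% in clone chr9-F1, 0.513% and 0.549% in clone chr9-G9, and 0.0570% and 0.0727% in the parental line. The Nfasc and Mapt domains were chosen after their values were seen.

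The span of contacts separated libraries but not genotypes. Contacts of at least 1 Mb between anchor midpoints took 1.16% and 0.806% of PETs in clone chr9-F1, 0.230% and 0.134% in clone chr9-G9, and 0.194% and 1.27% in the parental line. The exact two-sided permutation p was 0.667. By number they were 12.6% and 12.7% of contacts in clone chr9-F1, 4.70% and 2.47% in clone chr9-G9, and 2.30% and 17.5% in the parental line. The parental libraries spanned the whole range by themselves. At the short end, contacts under 20 kb were 38.0% and 34.1% of the list in clone chr9-F1, 47.2% and 52.3% in clone chr9-G9, and 52.8% and 29.2% in the parental line.

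**Figure D5:**
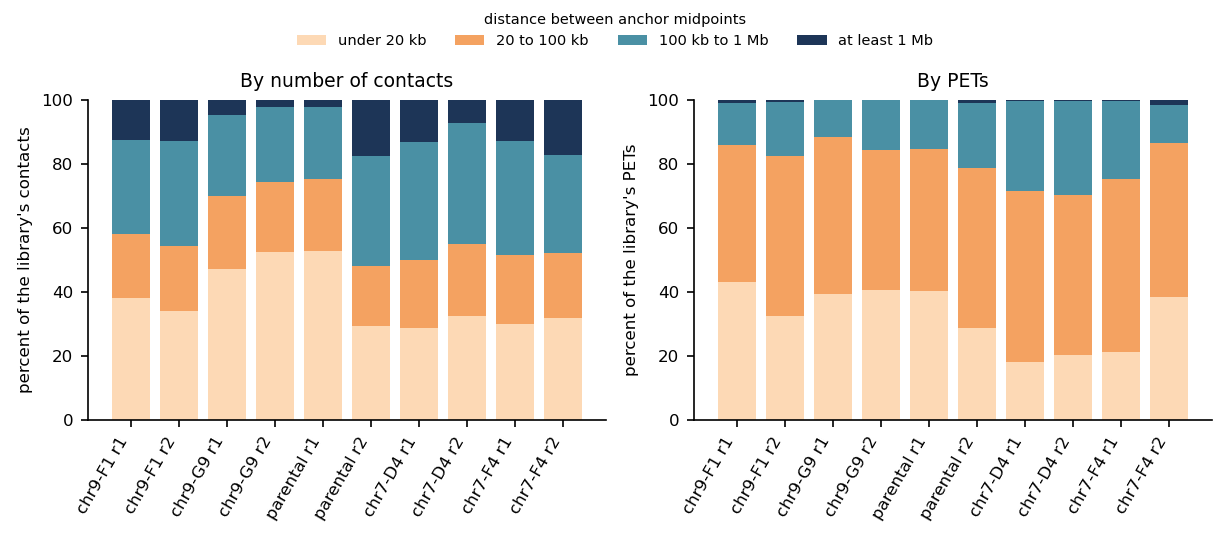
Percent of contacts (left) and of PETs (right) in 4 classes of distance between anchor midpoints, 1 stacked bar a library. Long contacts are rare in chr9-G9 and in parental replicate 1 and common in chr9-F1 and parental replicate 2.

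Shares of PETs differed by chromosome. The X chromosome took 0.455% and 0.506% of PETs in clone chr9-F1, 0.369% and 0.360% in clone chr9-G9, and 0.275% and 0.419% in the parental line (exact permutation p = 0.40). By number of contacts it took 0.955 ± 0.0636% (SD, n = 4) in the chr9 libraries and 0.820 ± 0.0656% (SD, n = 2) in the parental ones (exact permutation p = 0.133). Against all 6 other libraries, at 0.834 ± 0.0699% (SD, n = 6), the exact permutation p was 0.0286, unadjusted, with 0.891% to 1.04% in the chr9 libraries and 0.770% to 0.941% in the others. RNA of the X chromosome differed as well, as 448 of its 735 tested genes rose and 19 fell by edgeR (median log2 change 0.40). No contact lay on the Y chromosome in these lists. Chromosome 9 held 3.75% and 3.55% in clone chr9-F1, 4.87% and 4.86% in clone chr9-G9, and 3.09% and 3.19% in the parental line, with 3.43% to 3.73% in the chr7 libraries. All 4 chr9 libraries were above both parental ones, and chr9-F1 overlapped the chr7 range. Chromosome 2, home of Hoxd, averaged 11.4 ± 1.30% (SD, n = 4) in the chr9 libraries and 12.7 ± 0.0671% (SD, n = 2) in the parental ones. The departures on both chromosomes were largest in chr9-G9.

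Long-range contacts between pairs of developmental genes were weak in chr9-G9 and near parental in chr9-F1. The 10 contacts with most PETs between domains whose edges lie at least 20 kb apart were taken. All but 1 had fewer PETs per 100000 in both chr9-G9 libraries than in both chr9-F1 libraries. Pairs with closer domain edges were left out, and not all kept this order. Foxq1 and Foxf2, 0.645 kb apart by domain edges, gave 25.3 and 49.7 in clone chr9-F1 and 26.8 and 27.3 in clone chr9-G9. Irx3 and Irx5, Iroquois homeobox genes 223 kb apart by domain edges, gave 72.4 and 59.7 in clone chr9-F1, 21.1 and 27.9 in clone chr9-G9, and 58.0 and 77.5 in the parental line. Nkx2-2 and Foxa2, ventral neural tube and endoderm regulators, gave 51.9 and 39.3 in clone chr9-F1, 7.83 and 9.02 in clone chr9-G9, and 49.4 and 71.8 in the parental line. Wt1 and Pax6, regulators of kidney and eye, gave 28.0 and 26.7 in clone chr9-F1, 4.78 and 3.75 in clone chr9-G9, and 27.2 and 45.7 in the parental line. In each of these 3 pairs both chr9-G9 libraries lay below all 4 libraries of chr9-F1 and the parental line.

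Irx1 and Irx2, Foxf2 and Foxc1, Pax2 and Lbx1, Lbx1 and Fgf8, and Cdkn2c and Dmrta2 followed the same order, with chr9-G9 lowest. Nkx2-4 and Nkx2-2 gave 38.8 and 38.8 in clone chr9-F1, 11.3 and 15.8 in clone chr9-G9, and 12.6 and 29.6 in the parental line, so that chr9-G9 overlapped the parental line. The exception was Kcnq1 with Cdkn1c, at 18 and 41 in clone chr9-F1, 21.6 and 21.8 in clone chr9-G9, and 11.3 and 26.8 in the parental line. Long contacts were rare over the whole chr9-G9 lists, as given above, and no pair was tested apart from that.

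Of 10 gene pairs taken from earlier results on the E14 contacts, 5 could be counted, and in 4 of these both chr9-G9 libraries lay below the chr9-F1 and parental ones. Nkx2-1 and Pax9, thyroid, lung and thymus regulators, gave 103 and 105 PETs per 100000 in clone chr9-F1, 31.7 and 36.9 in clone chr9-G9, and 92.8 and 112 in the parental line. Foxq1 and Foxf2 gave 21.8 and 49.7 in clone chr9-F1, 26.8 and 27.3 in clone chr9-G9, and 18.9 and 59.2 in the parental line. Nkx2-2 and Pax1 gave 66.2 and 54.4 in clone chr9-F1, 20.7 and 22.5 in clone chr9-G9, and 80.2 and 85.0 in the parental line. This was the only pair of the 10 lower in all 4 chr9 libraries (exact permutation p = 0.133, the smallest possible, unadjusted over the 10). Irx1-Irx2 and Irx3-Irx5 overlapped the parental range. Six3-Six2, Hoxb13-Hoxb9, Tbx2-Tbx4 and Fev-Ihh lay mostly inside a single pair of overlapping anchors, so their link could not be counted apart. Raet1e-H60b was not listed in any of the 6 libraries.

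By 100 kb loci, more were called between the 2 clones of the same deletion than between the clones and the parental line. Not every setting kept this order. Without chr9-F1 replicate 2, edgeR called 0 higher and 1 lower between the clones, and 2 higher and 2 lower against the parental line. Between chr9-G9 and chr9-F1 edgeR called 3 of 2570 loci higher (0.117%) and 1 lower (0.0389%), with 353 at an unadjusted p under 0.05. The lower one was the En1 window described above. Higher were Kcnq1-Cdkn1c-Phlda2 (log2 change 7.07, adjusted p = 0.030), Hpcal4-Heyl (3.91, adjusted p = 0.030) and Anxa2-Foxb1 (8.24, adjusted p = 0.0472). These sizes carry the jump of anchor midpoints, since by merged domains edgeR called 1 domain between the clones. That domain was Hoxd, lower in chr9-G9 (log2 change -1.25, adjusted p = 0.0334).

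Contacts listed only on one side were few beside those that came and went within a line. By 20 kb bins, 116 contacts were in all 4 chr9 libraries and no parental one, 146 in both parental libraries and no chr9 one, and 628 in all 6, out of 17601 listed in any. The first 2 counts compare 4 libraries with 2 and are not a rate. By overlap of both anchors 194 were in the chr9 libraries alone, 111 in the parental ones alone and 1897 in all 6. Without chr9-F1 replicate 1 these overlap counts were 514, 135 and 2203. By overlap of both anchors, contacts present only in the parental libraries included that of the deleted element with Esam (12 and 4 PETs). Another joined the element to an anchor beside Robo3 (3 and 58 PETs), which overlapped no named gene in parental replicate 1. The contacts of chr9-F1 replicate 1 that joined the interval's edge to Robo3 and Esam had other anchors in the interval. Also only in the parental libraries were Klhl22 (3 and 1852 PETs), Lbx2 to Rtkn (4 and 1462 PETs) and Nbl1 to Pax7 (4 and 16 PETs). None of these is on chromosome 9. The chr7 libraries had up to 4809 PETs at Klhl22, up to 2924 at Lbx2 to Rtkn and up to 7 at Nbl1 to Pax7, with 0 in some. Those only in the chr9 libraries included Crhr1 to Mapt, with 4 and 8 PETs in chr9-F1 and 3831 and 3925 in chr9-G9, and Ebf3, with 3 and 1882 in chr9-F1 and 2727 and 2218 in chr9-G9. The chr7 libraries had 0 to 5 PETs at Crhr1 to Mapt and 0 to 4010 at Ebf3, so the Ebf3 contact was not limited to the chr9 clones. Several contacts had only a few PETs in chr9-F1. These examples were chosen after their values were seen.

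RNA of the same lines gave a second readout at these anchors, from 2 chr9-F1, 3 chr9-G9 and 3 parental libraries with 90.3 to 128 M counts each. Of 19993 genes, 3423 (17.1%) rose and 4121 (20.6%) fell by edgeR in the mean of both clones against the parental line, so a call by itself is common. Among the genes contacted by the element, Robo3 rose, with 1.56 and 1.58 counts per 1000000 counted (CPM) in clone chr9-F1, 1.30, 1.43 and 1.49 in clone chr9-G9, and 0.442, 0.399 and 0.538 in the parental line (log2 change 1.69, SE 0.30, adjusted p = 4.20e-05 by edgeR). All 5 chr9 libraries lay above the 3 parental ones. Pknox2 rose by 0.52 on the log2 scale (adjusted p = 9.86e-06 by edgeR). Esam, at 0.410 to 0.894 CPM in the chr9 libraries and 0.450 to 0.727 in the parental ones, did not pass (log2 change 0.28, adjusted p = 0.507 by edgeR). Gramd1b did not pass either, and Skor1 was near 0 in every library.

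Genes in the Hox and other developmental domains, whose Ezh2 share was lower, were in several cases higher in RNA. Of the genes in list loci lower in all 4 chr9 libraries, 40 were tested, 19 rose and 0 fell, with a median log2 change of 0.69 against -0.02 for all genes. Over the whole list 166 genes were tested, 63 rose and 14 fell, with a median of 0.51. In loci that overlapped between lines 38 of 111 rose and 11 fell (median 0.48), and in loci higher in all 4, 4 of 9 rose and 2 fell (median 0.90). The share of genes that rose was above the 17.1% of all genes in all of these classes. Hoxc genes rose in 8 of 9 cases, Hoxa in 5 of 8, Hoxd in 2 of 6 and Hoxb in 1 of 5, in the mean of both clones. Of these 28 tested Hox genes, 17 rose by edgeR in chr9-G9 taken by itself and 4 in chr9-F1 taken by itself (Hoxc8, Hoxa9, Hoxd9 and Hoxb4), where Hoxb13 fell. Directly compared by edgeR, 5 were higher in chr9-G9 than in chr9-F1 and 0 lower. Hoxc13 rose to 5.43 and 5.48 CPM in chr9-F1 and 6.90 to 7.40 in chr9-G9, against 4.07 to 4.8 in the parental line (log2 change 0.50, adjusted p = 0.000595 by edgeR). Hoxa9 had 0.233 and 0.382 CPM in chr9-F1, 0.554 to 0.797 in chr9-G9, and 0.0512 to 0.0737 in the parental line (log2 change 2.72, adjusted p = 0.000293 by edgeR). Hoxd13 did not pass (log2 change 0.59, adjusted p = 0.0772 by edgeR). All of these RNAs were rare, the summed Hoxc CPM being 9.13 and 9.29 in chr9-F1, 11.5 to 13.6 in chr9-G9, and 6.25 to 7.62 in the parental line.

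Markers of other cells moved beside these RNAs. Of 16 feeder fibroblast markers 13 rose and 1 fell, with a summed level of 546 to 607 CPM in chr9-F1, 677 to 991 in chr9-G9, and 575 to 609 in the parental line. Embryonic fibroblasts express Hox genes. Of 7 extraembryonic endoderm markers 5 rose and 0 fell (summed 104 to 112 CPM in chr9-F1, 105 to 113 in chr9-G9, 55.1 to 66.3 in the parental line). Of 6 markers of 2-cell-like cells 6 rose (128 to 132 CPM in chr9-F1, 40.6 to 44.2 in chr9-G9, 22.8 to 24.0 in the parental line). Of 6 trophoblast markers 1 rose and 3 fell. Of 10 ES cell markers 2 rose and 4 fell, at 7615 to 7807 CPM in chr9-F1, 8157 to 9075 in chr9-G9, and 7667 to 8185 in the parental line, so ES cell RNA was abundant throughout. In bulk samples more cells of a type and more RNA per cell cannot be told apart, and the part of other cells in the Hox RNA or in the Ezh2 shares was not tested.

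In the Kcnq1 cluster Kcnq1ot1 rose and 5 genes fell. Kcnq1ot1 had 4.49 and 4.76 CPM in chr9-F1, 4.65 to 9.07 in chr9-G9, and 1.34 to 1.78 in the parental line (log2 change 1.80, SE 0.17, adjusted p = 4.18e-10 by edgeR). Phlda2 had 9.6 and 11 CPM in chr9-F1, 6.35 to 7.25 in chr9-G9, and 22.5 to 24.0 in the parental line (log2 change -1.46, SE 0.07, adjusted p = 8.99e-17 by edgeR). On the log2 scale Slc22a18 fell by 1.41, Kcnq1 fell by 3.64, Cdkn1c fell by 0.57 and Nap1l4 fell by 0.14. Cd81 rose by 0.21, and Tssc4 and Tspan32 did not pass. Kcnq1 and Kcnq1ot1 overlap on opposite strands. No strand setting of the counting is named in these sources, and reads of the pair may be mixed.

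Other imprinted loci of the list changed in both directions. Grb10, a growth factor receptor adaptor, had 65.5 and 65.5 CPM in chr9-F1, 93.2 to 96.5 in chr9-G9, and 247 to 254 in the parental line (log2 change -1.67, adjusted p = 2.27e-23 by edgeR), while its Ezh2 share was 0.0700% and 0.0762% in clone chr9-F1, 0.0804% and 0.115% in clone chr9-G9, and 0.0325% and 0.0479% in the parental line. The chr7 libraries had 0.0439% to 0.127% there. H19, a noncoding RNA, rose by 3.47, Dlk1 by 1.29, Igf2 by 0.90 and Meg3 by 0.53 on the log2 scale. At Igf2-H19 the Ezh2 share was 0.129% and 0.189% in clone chr9-F1, 0.142% and 0.148% in clone chr9-G9, and 0.101% and 0.113% in the parental line. The chr7 libraries had 0.0672% to 0.180% at Igf2-H19, so at both loci they overlapped the chr9 ones. Against the parental line alone, a higher Ezh2 share stood beside lower RNA at Grb10 and beside higher RNA at Igf2-H19.

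On chromosome 4, where the Ezh2 share was higher, 4 of 9 tested genes fell, 1 rose and 4 did not pass. Over the whole of chromosome 4, 390 of 1168 genes fell and 119 rose (median log2 change -0.12), so falls were common on this chromosome. Ptprf fell by 0.22 and Ebna1bp2 by 0.24 on the log2 scale. Cdc20, a mitotic activator, and Tmem125 fell with adjusted p-values of 0.0349 and 0.0246 by edgeR, which several other settings did not keep. Tie1, an endothelial receptor, rose, with 5.76 and 6.34 CPM in chr9-F1, 2.43 to 2.80 in chr9-G9, and 1.40 to 1.70 in the parental line (log2 change 1.30, adjusted p = 4.69e-06 by edgeR). Foxb1 RNA was at or near 0 in all libraries whatever its Ezh2 share.

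RNA of PRC2 itself differed little in size. Ezh2 had 178 and 185 CPM in chr9-F1, 180 to 181 in chr9-G9, and 228 to 238 in the parental line (log2 change -0.37, SE 0.05, adjusted p = 5.65e-07 by edgeR). The core subunit Eed fell by 0.26 and the histone binder Rbbp4 by 0.25 on the log2 scale. Suz12, the third core subunit, rose by 0.27, and the accessory subunits Aebp2, Mtf2 and Phf1 by 0.27, 0.35 and 0.41. Ezh1, Rbbp7, Jarid2 and Phf19 did not pass. The part of these RNA levels in the contact lists was not tested.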

How the data were processed

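Ezh2 ChIA-PET contact lists of 10 B6NJ libraries and stranded mRNA counts of 26 libraries were used, grouped by the clone and line in the labels. Per the labels' protocols, chromatin was digested with AluI, ligated with linkers, sonicated, immunoprecipitated for Ezh2 and tagmented. BWA is named in the submitters' processing notes with mm10. For the Ezh2 lists the caller and threshold are not given in these sources. The authors deposited a count of PETs per listed contact, at least 3, and listed only contacts they called significant, so weak contacts are cut off and wide anchors can merge neighbouring sites. RNA read counts per gene were deposited by the authors as whole numbers. HISAT2 2.1.0 and HTSeq 0.6.1 are named for them in the submitters' processing notes. The authors' E14 peak lists give a fold enrichment (ratio to background) per peak, pooled over libraries, with MACS2 2.1.1.20160309 named in the submitters' processing notes.

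Contacts were placed in 20 kb bin pairs and 100 kb loci by anchor midpoint, and in merged anchor domains. PET counts were tested with edgeR 4.0.16 (TMM, filterByExpr, quasi-likelihood, Benjamini-Hochberg at 0.05, R 4.3.3, limma 3.58.1) in 1 model of the 6 libraries, as the mean of both clones minus the parental line. RNA was tested likewise in 1 model of all 26 libraries, which include clones of the chr7, chr3 and chr2 deletions and share 1 estimate of the spread. DESeq2 1.42.0 was an alternative. Values of single measures were compared by exact two-sided permutation. Genes named for contacts and domains overlapped the anchors, and loci of the developmental list were matched to anchors within 5 kb. Scripts were tested on simulated data. Tables and plots were made with pandas 2.3.3, matplotlib 3.10.9, scipy 1.17.1 and numpy 2.4.6 under Python 3.11.15.

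The contacts, the gene lists and the rule for named genes were chosen with earlier results of these data known. Named were called contacts and loci or those of smallest p, and genes contacted by the interval. Also named were the 10 contacts with the most PETs between domains with edges at least 20 kb apart. The 5 list loci with the largest PET share difference each way, and 10 gene pairs, were named as well. Intervals and p-values cover the spread between libraries, and depth is the total of listed PETs, not of reads. Some genes of the lists are not reported here.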

Additional observations from a re-analysis of the deposited data

Results flagged for a closer look

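One chr9 library stood apart from the other 3 at the deleted interval. chr9-F1 replicate 1 had 2.82 contacts per 10000 there, and the other 3 had 0. With those 3 at 0, any value above 0 in the remaining library is flagged, so the flag gives no measure of chance. It rests on 2 contacts with 10 PETs in all.

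The clones differed from each other, by a test of chr9-G9 against chr9-F1 in edgeR, at 4 loci of 100 kb. The log2 changes were -8.36 at En1, 7.07 at Kcnq1, Cdkn1c and Phlda2, 3.91 at Hpcal4, Heyl and Nt5c1a, and 8.24 at Anxa2 and Foxb1. As merged domains En1 differed by -0.85 and Foxb1 by 1.32 on the log2 scale between the clones, and neither was called.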

How the results depend on the processing

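Calls depended on the tool and on how weak features were filtered. DESeq2 called 224 contacts, 123 loci and 210 loci between the clones, against 0, 1 and 4. Without a filter the loci came to 146 and, between the clones, 196. The block of replicate numbers left 0 loci and 1 between the clones. The numbers do not pair the libraries, since same-numbered libraries deviated together with correlations of only -0.00 to 0.04 in contacts and -0.03 to 0.02 in RNA. Without contacts under 20 kb 0 loci remained in both comparisons, 50 kb bins gave 0, 250 kb bins 2, merged domains 0 and 1, and all 10 libraries 1 between the clones. Merged domains with no filter gave 97. Leaving out 1 library at a time gave 0 to 6 loci, 1 to 7 between the clones, and 0 to 43 merged domains where the filter was run again (40 without chr9-F1 replicate 1, 19 without chr9-F1 replicate 2, 43 without chr9-G9 replicate 1, 28 without chr9-G9 replicate 2, 4 without parental replicate 1, 0 without parental replicate 2). Pairs of merged domains gave 32 calls without chr9-F1 replicate 1, and 0 with all 6 libraries. On the same domains each left-out library gave 0, so the extra calls appeared only where the set of domains tested was changed. They did not follow the number of domains: 2823 without chr9-G9 replicate 1 gave 43 calls, and 3091 without parental replicate 1 gave 4. The cause of these and of the other changes was not tested.

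The interval difference was -9.04 contacts per 10000 (-12 to -6.12 with 1 library left out). It was -8.57 against all 6 other libraries (exact permutation p = 0.00952), which checks the labels only, since removed DNA gives no reads. The long-contact difference was -0.151 percentage points, but 0.389 without parental replicate 2 (range -0.690 to 0.389). The developmental share stayed between -12.1 and -7.83 points. Contacts in both parental libraries and no chr9 one numbered 221 at 10 kb, 84 at 50 kb, 89 with at least 4 PETs and 191 to 2960 with 1 library left out (2960 without parental replicate 1). The converse gave 176 to 311, 194 by anchor overlap and 514 by overlap without chr9-F1 replicate 1. RNA calls ran from 5956 to 7526 with 1 library left out. For 54 named genes 667 alternative RNA results kept direction and call, 19 lost the call and 6 gained it, and 0 called ones reversed. The other 10 turned sign in genes that were not called: Cbx6 (-0.04 to 0.04 with 1 library left out), Cfap57 (-0.31 to 0.16), Msantd2 (-0.02 to 0.03) and Tmem218 (-0.04 to 0.02). Lost or gained calls included Nrgn without chr9-F1 replicate 2 or parental replicate 2, and Cdc20 and Tmem125, among others. The merged-domain, anchor-overlap and same-domain settings were chosen after seeing the data. The lists hold 301768 to 753484 PETs in these 6 libraries and cut contacts under 3 PETs, so a contact that is not listed was not detectable, not absent.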
